A study of Mus musculus with 12 samples.

Results

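The collagen chain genes, meaning every gene whose symbol is Col, a number, the letter a and a number, were followed in mouse hearts that had or had not been exposed to pressure overload with or without BCAA in the diet, the branched-chain amino acids valine, leucine and isoleucine. Of 16246 genes in the deposited tables, 37 were collagen chains: 10 fibrillar chains, 6 type IV chains of the basement membrane and 21 chains of other types. A further 8 chains of these classes were not analysed here (Col6a4, Col6a5, Col9a1, Col10a1, Col17a1, Col19a1, Col21a1 and Col24a1). Transcripts were measured by polyA RNA sequencing in 12 heart samples of male C57Bl/6J mice, 12 weeks old, with 3 samples in each of 4 groups: BCAA-free TAC, BCAA-free sham, control diet TAC and control diet sham. The control diet held all essential amino acids, including BCAA at the level of standard chow. Diets began 4 days before surgery and went on until hearts were taken 2 weeks later. TAC, transverse aortic constriction, narrows the aorta so that the left ventricle pumps against a higher pressure, and sham is the operation without the constriction. The tissue label is heart with no region named, and no label tells single hearts and pools of hearts apart. The p-values therefore describe the spread among these 12 samples alone, part or all of which could be technical. In bulk tissue, fewer cells of a type and less RNA per cell cannot be told apart.

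Collagens are secreted proteins in which alpha chains wind into a rope-like helix. Fibrillar collagens form the load-bearing fibres between heart muscle cells. Type I, made of Col1a1 and Col1a2 chains, and type III, made of Col3a1, are the main ones in the heart and are laid down by fibroblasts in fibrosis, while type V chains start and limit fibre growth. Type IV chains build the sheet-like network of the basement membrane around capillaries and heart muscle cells. Among the other chains, type VI forms beaded filaments, type VIII a short-chain network, types XII, XIV and XVI bind to fibre surfaces, and types XV and XVIII are proteoglycans next to basement membranes.

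The type IV genes lie in head-to-head pairs in the mouse genome (GRCm38). The starts of Col4a1 (chromosome 8, 11198423 to 11312826, minus strand) and Col4a2 (11312805 to 11449287, plus strand) are 21 bases apart. Those of Col4a3 (chromosome 1, 82586921 to 82722059, plus strand) and Col4a4 (82448423 to 82586849, minus strand) are 72 bases apart, and those of Col4a5 and Col4a6 on the X chromosome 1309 bases apart. Col3a1 (chromosome 1, 45311538 to 45349706, plus strand) and Col5a2 (45374321 to 45503282, minus strand) are neighbours whose ends lie 24615 bases apart. The 250 bases before the RefSeq start (GRCm38.p6) are shown for 4 chains that the results turn on. They are Col3a1 and Col15a1, which fell in both diet comparisons, Col8a1, and Col5a3. Col5a3 was the only fibrillar chain that passed the main test of whether the TAC effect differed between diets.
Col3a1, chr1:45311288-45311537, plus strand: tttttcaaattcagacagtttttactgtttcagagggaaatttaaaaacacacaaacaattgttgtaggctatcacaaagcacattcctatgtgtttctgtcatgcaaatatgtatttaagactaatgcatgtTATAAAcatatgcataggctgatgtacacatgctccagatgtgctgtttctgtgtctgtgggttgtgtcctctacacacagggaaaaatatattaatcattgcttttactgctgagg
Col8a1, chr16:57754738-57754987, minus strand: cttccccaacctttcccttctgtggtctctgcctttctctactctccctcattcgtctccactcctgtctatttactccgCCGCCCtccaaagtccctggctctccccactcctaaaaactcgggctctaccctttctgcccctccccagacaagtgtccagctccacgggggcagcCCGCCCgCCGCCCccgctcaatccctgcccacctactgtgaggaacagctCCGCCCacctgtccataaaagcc
Col5a3, chr9:20815068-20815317, minus strand: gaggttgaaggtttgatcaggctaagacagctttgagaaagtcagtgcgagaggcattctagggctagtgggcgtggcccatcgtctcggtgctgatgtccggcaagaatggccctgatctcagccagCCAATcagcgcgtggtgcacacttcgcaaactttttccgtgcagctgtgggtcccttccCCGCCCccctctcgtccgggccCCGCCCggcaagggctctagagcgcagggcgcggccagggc
Col15a1, chr4:47207762-47208011, plus strand: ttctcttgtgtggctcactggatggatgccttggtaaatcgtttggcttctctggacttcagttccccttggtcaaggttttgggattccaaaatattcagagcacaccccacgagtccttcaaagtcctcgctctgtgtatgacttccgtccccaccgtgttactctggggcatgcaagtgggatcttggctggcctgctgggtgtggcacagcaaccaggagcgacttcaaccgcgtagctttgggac
Capitals mark the searched motifs on either strand, the TATA box letters TATAAA, the CCAAT box letters CCAAT and the GC box letters GGGCGG. The Col3a1 window held TATAAA with its first base 117 bases before the start, Col5a3 held CCAAT at 122 and GGGCGG on the opposite strand at 63 and 41, and Col8a1 held GGGCGG on the opposite strand at 170, 73, 66 and 23. The Col15a1 window held none of these letters. Over 32851 RefSeq windows of this length, 33.8% held CCAAT, 12.4% TATAAA and 32.7% GGGCGG, and among the 38 windows of the 35 chains that matched by symbol 13, 5 and 22 did.

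Collagen transcripts made up 0.123%, 0.149% and 0.169% of all reads in BCAA-free TAC hearts and 0.13%, 0.118% and 0.128% in BCAA-free sham hearts. They made up 0.402%, 0.932% and 0.447% in control diet TAC hearts and 0.204%, 0.17% and 0.159% in control diet sham hearts. The share was thus higher after TAC in every control diet library, and the BCAA-free groups overlapped with each other. Control diet TAC replicate 2 stood apart with the highest share. Per kb of exon, the type IV chains Col4a1 and Col4a2 were the most abundant chains in all 4 groups. This order rests on the exon union as length. The exon union was 12426 bases for Col1a2 and 9816 for Col3a1, against longest transcripts of 5348 and 5564. For Col4a1 and Col4a2 it was 7464 and 6619, closer to the longest transcripts of 6615 and 6450. Levels per kb of transcript were not computed. In BCAA-free TAC hearts they averaged 1424 ± 144 and 1805 ± 253 normalized reads per kb (SD, n = 3), and in BCAA-free sham hearts 1410.3 ± 80.4 and 1653 ± 87.2. In the separately normalized control diet table they averaged 4517 ± 1194 and 4224 ± 1049 in TAC hearts and 1840.1 ± 273 and 1843 ± 179 in sham hearts. Depth, as reads recovered from the values, was 13847107 to 52065900 per library, and cardiomyocyte markers such as Myh6 and Tnnt2 were present in all libraries. The mean chi-square per gene between the reads of 2 replicates was 60.6 and 67 for control diet TAC replicate 2 against the others of its group, which gave 10.7 with each other. Control diet sham replicate 3 likewise stood apart, with 47.5 and 49.4 against the other control diet sham hearts and 11.8 between those. Among BCAA-free hearts the values were 13.8 to 19.9 after TAC and 4.66 to 36.7 after sham. The 36.7 was between BCAA-free sham replicates 1 and 3, with 49321971 and 50150287 recovered reads. Replicate 2 of that group, with 13848953 reads, gave 4.66 with replicate 1 and 15.8 with replicate 3. The part of depth in these values was not tested.

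TAC on the control diet raised 20 of 37 chains by limma (adjusted p under 0.05 over all genes), with a median log2 fold change of 1.27. Over all 15397 genes tested, 2.95% rose and the median was -0.0047. Of the chains, 30 were higher in all 3 TAC samples than in any sham sample and 2 were lower, against 17.8% and 17.4% of all genes. Among fibrillar chains 6 of 10 rose (median 2.05), among type IV chains 5 of 6 (median 1.09), and among the others 9 of 21 (median 1.35). Col11a1, Col2a1 and Col9a3 averaged below 10 in sham hearts and reached the minimum mean of 10 through the TAC hearts. Col11a1 and Col2a1 were not tested for TAC on the BCAA-free diet, so medians for the diets are over unlike sets.

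Normalized read counts of the type I chain Col1a1 (chromosome 11, 94936224 to 94953042) were 6259.6, 22608 and 7241 in control diet TAC hearts, against 2377, 2789.9 and 1496 in control diet sham hearts. The rise was 2.23 ± 0.48, adjusted p = 0.049 on the log2 scale. Its partner Col1a2 had 8246, 26729 and 8903 in control diet TAC hearts, against 3540.4, 3161 and 2616 in control diet sham hearts (2.02 ± 0.42, adjusted p = 0.0468). Both chains separated the groups, with replicate 2 of the TAC group far above the other TAC hearts. Col3a1, the type III chain, had 13934, 40703 and 16746 in control diet TAC hearts, against 5697, 4470.3 and 4192 in control diet sham hearts (2.16 ± 0.36, adjusted p = 0.0377). Its value in replicate 2 was again the highest, and the other TAC hearts still lay above every sham heart. The type V chain Col5a1 had 3428, 7643 and 3598 in control diet TAC hearts, against 1839, 1715 and 1431 in control diet sham hearts (1.46 ± 0.28). Col5a2 had 2580.4, 7749 and 2546 in control diet TAC hearts, against 946, 787 and 909 in control diet sham hearts (2.08 ± 0.40). Col5a3 had 2021, 2869.8 and 2232 in control diet TAC hearts, against 1547, 1504 and 1362 in control diet sham hearts (0.68 ± 0.14). The type V chains thus all rose, with a smaller log2 fold change for Col5a3 than for Col5a1 and Col5a2, a difference that was not tested. The cartilage-type chains Col11a1 (3.20 ± 0.84, adjusted p = 0.062) and Col2a1 (2.32 ± 0.58, adjusted p = 0.0554) were low, with means of 106 ± 138 in control diet TAC and 5.93 ± 2.98 in control diet sham hearts for Col11a1, and missed the threshold, as did Col27a1 (0.61 ± 0.23, adjusted p = 0.122). Col11a2 lay below 0 on the log2 scale (-0.43 ± 0.17, adjusted p = 0.131), with every TAC value below every sham value.

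Among type IV chains, Col4a1 had 26596, 43712 and 30837 in control diet TAC hearts, against 15988, 12020.5 and 13195 in control diet sham hearts (1.27 ± 0.19, adjusted p = 0.0363). Col4a2 had 23222, 35925 and 24719 in control diet TAC hearts, against 13551, 11694 and 11342 in control diet sham hearts (1.17 ± 0.18, adjusted p = 0.0363). In this main pair of the basement membrane replicate 2 was high by a smaller factor than for Col1a1, Col1a2 and Col3a1. Col4a3 had 309, 315 and 321 in control diet TAC hearts, against 152, 124 and 119.7 in control diet sham hearts (1.26 ± 0.14, adjusted p = 0.0217). Col4a4 had 510.4, 655 and 561 in control diet TAC hearts, against 333, 287 and 242 in control diet sham hearts (1.00 ± 0.15). Col4a5 had 1529, 2203 and 1693 in control diet TAC hearts, against 1189.7, 1088 and 1109 in control diet sham hearts (0.66 ± 0.14). For Col4a3, which is known from specialised membranes such as the kidney filter, the TAC hearts lay close together and well above the sham hearts. Col4a6 did not pass (0.91 ± 0.29, adjusted p = 0.089), although its groups did not overlap. Col4a3 shares 5.65% of its exon bases with C430014B12Rik on the other strand, and the sources used here do not say whether counting used strand.

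Of the other chains, Col8a1, a network-forming chain of vessel walls, had 2429, 8035 and 2542 in control diet TAC hearts, against 622, 535 and 506 in control diet sham hearts. Its rise was 2.73 ± 0.42, adjusted p = 0.0377. Of the 4 type VI chains tested 3 rose, with log2 fold changes of 1.18 ± 0.25 for Col6a1, 1.18 ± 0.25 for Col6a2 and 1.40 ± 0.22 for Col6a3. Col6a1 had 5421, 11376 and 5724 in control diet TAC hearts, against 3238, 2991 and 3111 in control diet sham hearts. Col6a2 had 5208, 10819.7 and 5366 in control diet TAC hearts, against 3109.6, 2778 and 2998 in control diet sham hearts. Col6a3 had 2047, 3728 and 2384 in control diet TAC hearts, against 1185, 1000.0 and 839 in control diet sham hearts. For the 3 chains all TAC hearts lay above all sham hearts. Col15a1, of the capillary and muscle basement membrane zone, had 7258, 13192 and 7472 in control diet TAC hearts, against 4106, 3211 and 3305 in control diet sham hearts (1.35 ± 0.22, adjusted p = 0.0369). Col18a1, the precursor of endostatin, had 1096, 1727 and 975 in control diet TAC hearts, against 442, 385 and 370.1 in control diet sham hearts (1.62 ± 0.20, adjusted p = 0.0217). Col14a1, which binds fibre surfaces, had 856, 2199.5 and 913 in control diet TAC hearts, against 314, 289.9 and 312 in control diet sham hearts (1.97 ± 0.32, adjusted p = 0.0369). Each of them separated the groups. Col26a1 and Col28a1 also rose, at low levels. Col26a1 had 35.2, 111 and 58.4 in control diet TAC hearts, against 10.4, 18.0 and 9.63 in control diet sham hearts (2.23 ± 0.43). Col28a1 had 61.6, 93.8 and 66.1 in control diet TAC hearts, against 27.8, 33.5 and 35.8 in control diet sham hearts (1.15 ± 0.24). Larger fold changes with larger errors did not pass for the fibre-associated chain Col12a1 (3.00 ± 0.67, adjusted p = 0.0531), Col22a1 (2.65 ± 0.64, adjusted p = 0.055), Col8a2 (2.87 ± 0.78, adjusted p = 0.0698) and Col9a2 (3.21 ± 0.75, adjusted p = 0.052), nor did the change of Col16a1 (1.61 ± 0.38, adjusted p = 0.0558). Col12a1 averaged 741 ± 822 in control diet TAC and 60.3 ± 2.64 in control diet sham hearts. The transmembrane chains Col13a1, Col23a1 and Col25a1 did not pass (log2 fold changes of -0.58 to 0.27), nor did Col6a6 (-0.70 ± 0.27, adjusted p = 0.131), Col7a1 (0.07 ± 0.35, adjusted p = 0.916), Col9a3 (0.69 ± 0.55, adjusted p = 0.443) and Col20a1 (0.17 ± 0.17, adjusted p = 0.551).

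Without control diet TAC replicate 2, 20 chains were called, against 1.05% of all genes higher. Of these chains, 16 were among the 20 above, and the median was 1.07. Col12a1 then passed (2.10 ± 0.21, adjusted p = 0.00502), as did Col8a2, Col16a1 and Col22a1, while Col26a1, Col28a1, Col4a5 and Col5a3 did not. Col1a1 had a log2 fold change of 1.65 ± 0.24 and Col3a1 of 1.69 ± 0.16 without it. The number of calls rested on single libraries: limma called 0 chains without control diet TAC replicate 3, against 0% of all genes higher, 0 without control diet sham replicate 1 or 2, against 0.013% in each fit, and 2 without control diet sham replicate 3, against 0.553%. In those 4 fits 1 to 2 chains had an unadjusted p under 0.05 and a negative fold change, while 28 to 29 had one and a positive fold change, against 29 higher and 3 lower on all 6 libraries. On all 6 libraries edgeR called 18 chains, against 2.7% of all genes higher, and DESeq2 28, against 8.38%. The Col1a1 call was lost with edgeR, with a pseudocount of 10 and with GC and length trends removed, and that of Col1a2 with edgeR. The replicate block lost Col1a2, Col3a1, Col5a2 and Col8a1. The authors' deposited table had 28 chains higher, against 8.49% of its genes with an adjusted p.

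**Figure D1:**
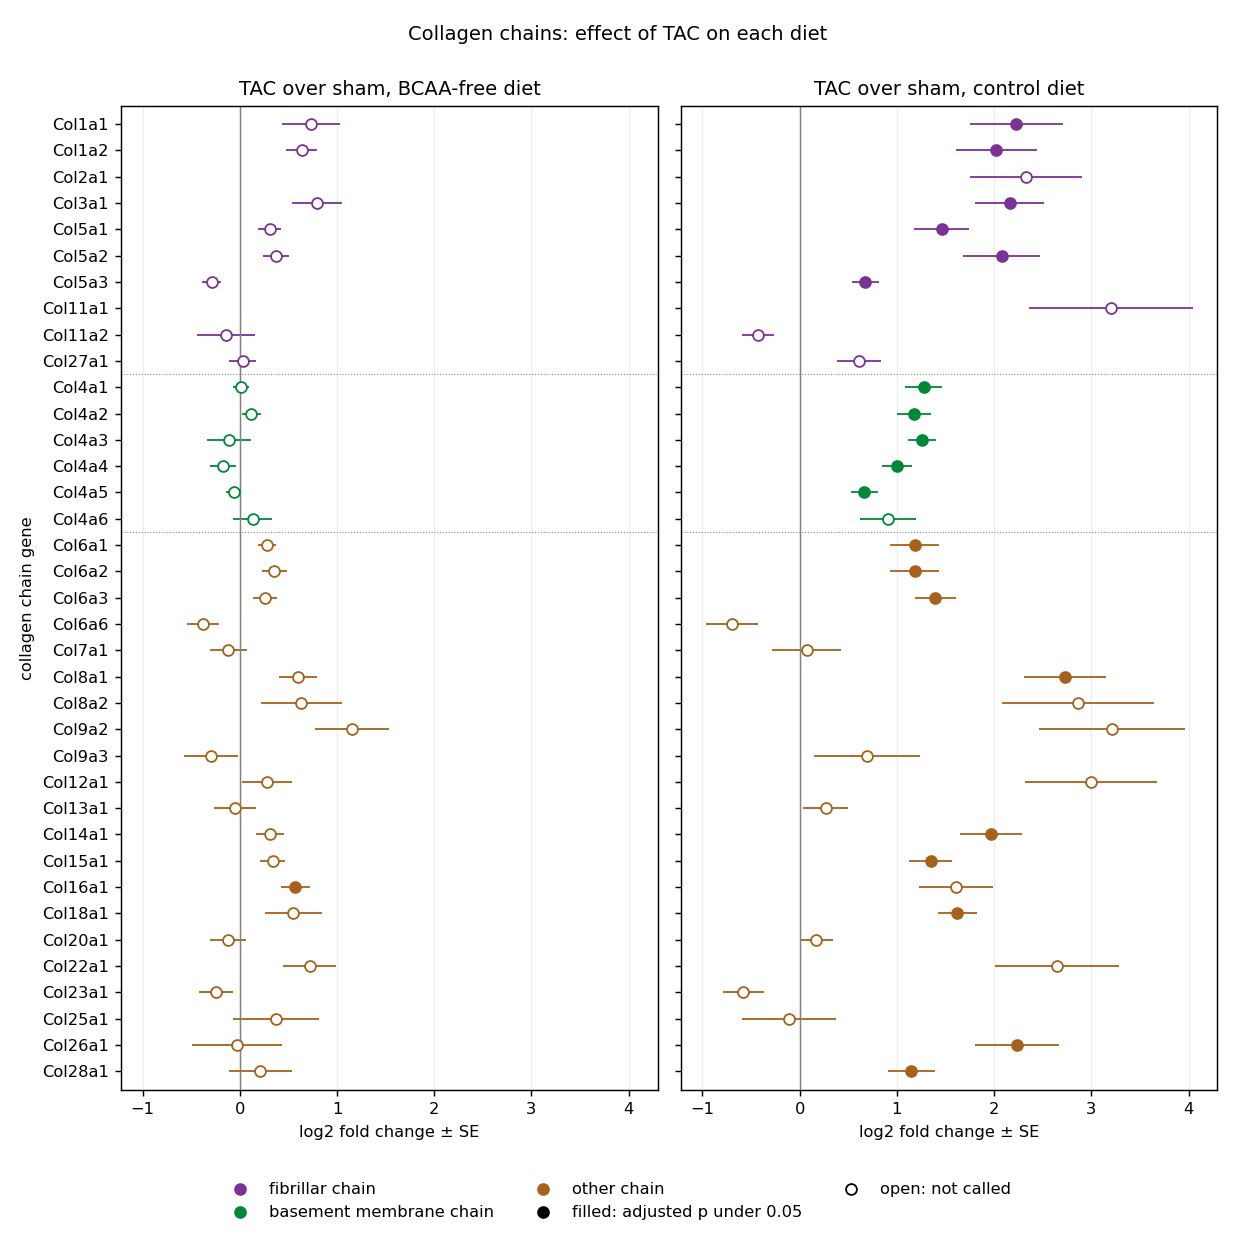
Log2 fold change ± SE (x axis) of each collagen chain (y axis), TAC over sham, on the BCAA-free diet (left) and the control diet (right), by class; filled points passed an adjusted p of 0.05 by limma. On the control diet 20 chains passed and on the BCAA-free diet 1, Col16a1, did.

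TAC on the BCAA-free diet raised 1 of 35 tested chains, Col16a1, by limma, against 3.34% of 15670 genes that rose. The median log2 fold change of the chains was 0.26, and 0.0014 over all genes. Col16a1, which binds fibre surfaces, had 370.0, 437 and 596 in BCAA-free TAC hearts, against 311, 302 and 311 in BCAA-free sham hearts (0.57 ± 0.15, adjusted p = 0.0485). At an unadjusted p under 0.05, 11 chains were higher and 2 lower. By edgeR 1 chain rose, against 3.33% of all genes, and by DESeq2 8 rose and 1 fell, against 4.92% and 4.59%. DESeq2 called Col16a1, Col1a2, Col3a1, Col5a2, Col6a1, Col6a2, Col8a1 and Col15a1 higher and Col5a3 lower. The authors' deposited table had 6 higher, against 5.91%. The Col16a1 call was lost without BCAA-free sham replicate 1, 2 or 3 and without BCAA-free TAC replicate 2 or 3, where 0.672%, 0.594%, 3.79%, 1.49% and 0.262% of all genes rose. Without BCAA-free TAC replicate 1, 6 chains were called higher, against 2.69%. Without BCAA-free sham replicate 3 the 1 called chain was Col6a6, which was lower, against 3.78% of all genes. The TAC group lay wholly above the sham group for 10 chains and below it for 1, Col5a3, against 14.6% and 15% of all genes.

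Col1a1 had 2018, 2958 and 4409.7 in BCAA-free TAC hearts, against 1682, 1731 and 1984 in BCAA-free sham hearts. Col1a2 had 3103, 3651 and 4992 in BCAA-free TAC hearts, against 2643, 2489 and 2293 in BCAA-free sham hearts. Col3a1 had 2756, 3362 and 5125 in BCAA-free TAC hearts, against 2463, 1786 and 2061 in BCAA-free sham hearts. In all 3 fibrillar chains the TAC hearts lay above the sham hearts, but the limma tests did not pass (0.73 ± 0.30, adjusted p = 0.219 for Col1a1, 0.64 ± 0.16, adjusted p = 0.0564 for Col1a2 and 0.80 ± 0.25, adjusted p = 0.132 for Col3a1). DESeq2 called Col1a2 and Col3a1 higher, and limma with a minimum mean of 100 called Col1a2. Col5a2 (0.37 ± 0.13, adjusted p = 0.121) also had groups that did not overlap, Col5a1 (0.31 ± 0.12, adjusted p = 0.133) did not, and Col5a3 had the opposite sign (-0.29 ± 0.10, adjusted p = 0.0974). Col5a3 had 1116, 1028 and 1074 in BCAA-free TAC hearts, against 1317, 1138 and 1502 in BCAA-free sham hearts, with every TAC value the lower one. Among the other chains, Col8a1 had 639, 728 and 1010.3 in BCAA-free TAC hearts, against 549, 607 and 408 in BCAA-free sham hearts (0.60 ± 0.20, adjusted p = 0.109). Col14a1 had 446, 448 and 641 in BCAA-free TAC hearts, against 436, 422 and 362 in BCAA-free sham hearts (0.31 ± 0.14, adjusted p = 0.205). Both were higher in all TAC hearts, as were Col6a1 (0.28 ± 0.09, adjusted p = 0.0824), Col9a2 (1.15 ± 0.38, adjusted p = 0.0884) and Col22a1 (0.72 ± 0.27, adjusted p = 0.128), without passing by limma. Col15a1 (0.34 ± 0.13, adjusted p = 0.15), Col18a1 (0.55 ± 0.29, adjusted p = 0.319), Col6a2 (0.36 ± 0.13, adjusted p = 0.121) and Col6a3 (0.26 ± 0.12, adjusted p = 0.21) overlapped between TAC and sham hearts.

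The type IV chains overlapped between TAC and sham hearts on this diet, all 6 of them, with a median of -0.026. Col4a1 had 9423, 10964 and 11491 in BCAA-free TAC hearts, against 10672, 9867 and 11040.2 in BCAA-free sham hearts (0.01 ± 0.08, adjusted p = 0.96). Col4a2 had 10014, 12836 and 12990.1 in BCAA-free TAC hearts, against 10739, 10494 and 11594 in BCAA-free sham hearts (0.12 ± 0.10, adjusted p = 0.499). Col4a3 had 147, 97.8 and 120.0 in BCAA-free TAC hearts, against 165, 141 and 93.8 in BCAA-free sham hearts (-0.11 ± 0.22, adjusted p = 0.811). The ranges of the groups crossed in each of these chains. None of the 6 had an unadjusted p under 0.05, and edgeR and DESeq2 called none.

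**Figure D2:**
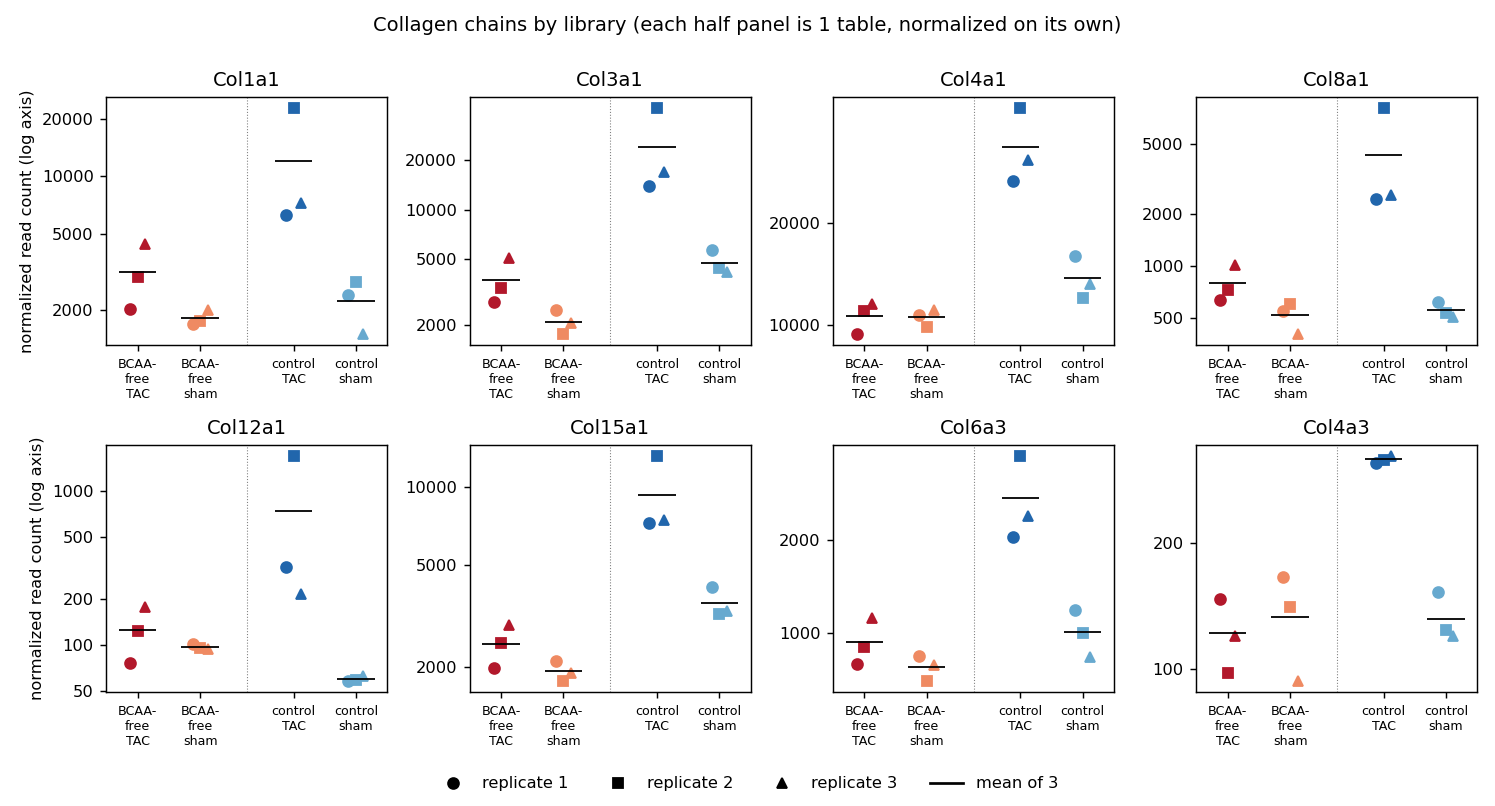
Normalized read counts (log y axis) of 8 collagen chains in each library, with a line at the mean of 3; the left and right sides of a panel come from 2 tables that were normalized separately. Control diet TAC hearts lie above control diet sham hearts in all 8 panels, and replicate 2 of that group is the highest except for Col4a3.

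The test of whether the TAC effect differed between diets (interaction, 12 libraries) passed for 10 of 37 chains, all with a smaller effect on the BCAA-free diet. The difference is the log2 effect on the BCAA-free diet minus that on the control diet. Of 15195 genes, 3.73% passed with a difference below 0, and the shares below are of such genes. The median difference over the chains was -1.07 on the log2 scale, and -0.030 over all genes. Of the type IV chains 5 of 6 passed: Col4a1 (-1.26 ± 0.22, adjusted p = 0.011), Col4a2 (-1.06 ± 0.21, adjusted p = 0.0167), Col4a3 (-1.37 ± 0.29, adjusted p = 0.0181), Col4a4 (-1.17 ± 0.21, adjusted p = 0.0114) and Col4a5 (-0.73 ± 0.16, adjusted p = 0.0217). Of the fibrillar chains 1 of 10 passed, Col5a3 (-0.97 ± 0.18, adjusted p = 0.0125). Col1a1 (-1.50 ± 0.68, adjusted p = 0.184), Col1a2 (-1.39 ± 0.55, adjusted p = 0.135) and Col3a1 (-1.36 ± 0.52, adjusted p = 0.125) did not. Of the other chains 4 of 21 passed: Col8a1 (-2.14 ± 0.58, adjusted p = 0.0499), Col14a1 (-1.65 ± 0.41, adjusted p = 0.0333), Col26a1 (-2.26 ± 0.64, adjusted p = 0.0434) and Col6a3 (-1.13 ± 0.28, adjusted p = 0.0323). The counts of passing chains did not follow the size of the difference, with medians of -1.26 for fibrillar, -1.11 for type IV and -1.01 for other chains. The fibrillar median includes Col11a1 and Col2a1, which were not tested for TAC on the BCAA-free diet alone. At an unadjusted p under 0.05 by limma, 5 of 10 fibrillar, 5 of 6 type IV and 12 of 21 other chains had a smaller effect. Col4a1, Col4a2, Col4a4 and Col5a3 passed in each of the 12 fits that left out 1 library. The number of chains in those fits was 4 to 14. It was 4 without BCAA-free sham replicate 2, against 0.829% of all genes, 4 without BCAA-free TAC replicate 3, against 0.586%, and 5 without BCAA-free sham replicate 1, against 0.882%. It was 6 without control diet sham replicate 3, against 3.5%, without BCAA-free TAC replicate 1, against 1.37%, and without BCAA-free TAC replicate 2, against 2.09%. It was 13 without control diet TAC replicate 2, against 1.92% of all genes. Col5a1, Col5a2, Col6a1 and Col12a1 were gained without that library, and DESeq2 on all libraries gained them too. On all libraries edgeR called 8 chains, against 3.72%, and DESeq2 16, against 6.59%. Col26a1 was called by neither, and Col8a1 was lost with edgeR, with the replicate block, with a pseudocount of 10 and with no minimum mean. With each library's trends over GC content and transcript length removed, 6 chains passed, and Col4a5, Col6a3, Col8a1 and Col14a1 did not. Scaling to library totals alone moved the median of all genes to 0.14 for TAC on the control diet and to -0.20 for the interaction, while the chains had medians of 1.42 and -1.24 and no called chain changed its direction.

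The BCAA-free diet was next compared with the control diet after TAC. It lowered 19 of 37 chains by limma, against 17.7% of 15872 genes that fell in this comparison. The median log2 fold change of the chains was -1.47, and 2.6e-04 over all genes. Of the chains, 25 were lower in all 3 BCAA-free hearts than in any control diet heart and 1, Col9a3, was higher, against 25.6% and 25.2% of all genes. The fibrillar chains had 6 of 10 down (median -1.73), the type IV chains 5 of 6 (median -1.31) and the others 8 of 21 (median -1.36). This comparison shares its control diet TAC hearts with that of TAC against sham on the control diet.

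Col3a1 had 2856, 3491 and 5313 in BCAA-free TAC hearts, against 17052, 49472 and 20396 in control diet TAC hearts (-2.78 ± 0.46, adjusted p = 0.00873). Col1a1 had 2091, 3071 and 4571 in BCAA-free TAC hearts, against 7660.4, 27478 and 8819 in control diet TAC hearts (-1.99 ± 0.58, adjusted p = 0.0476). Col1a2 had 3215, 3790.4 and 5176 in BCAA-free TAC hearts, against 10091, 32487 and 10843 in control diet TAC hearts (-1.94 ± 0.50, adjusted p = 0.0354). Every BCAA-free heart lay below every control diet heart in the 3 chains. Col5a1 had 1615, 1917 and 2299 in BCAA-free TAC hearts, against 4196, 9289 and 4382 in control diet TAC hearts (-1.53 ± 0.33). Col5a2 had 857, 912 and 1286 in BCAA-free TAC hearts, against 3158, 9419 and 3101 in control diet TAC hearts (-2.17 ± 0.48). Col5a3 had 1156, 1068 and 1114 in BCAA-free TAC hearts, against 2473, 3488 and 2719 in control diet TAC hearts (-1.36 ± 0.12, adjusted p = 0.000407). Within type V, Col5a3 had the narrowest spread and the smallest adjusted p. Col11a1 (-2.60 ± 0.96, adjusted p = 0.0807), Col2a1 (-1.47 ± 0.68, adjusted p = 0.129) and Col27a1 (-0.60 ± 0.22, adjusted p = 0.0669) did not pass.

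Col4a1 had 9764, 11383 and 11913 in BCAA-free TAC hearts, against 32548, 53128 and 37558 in control diet TAC hearts (-1.87 ± 0.17, adjusted p = 0.000675). Col4a2 had 10377, 13326 and 13467 in BCAA-free TAC hearts, against 28419, 43664 and 30107 in control diet TAC hearts (-1.44 ± 0.17, adjusted p = 0.0014). Col4a3 had 153, 102 and 124 in BCAA-free TAC hearts, against 378, 382 and 391 in control diet TAC hearts (-1.62 ± 0.16, adjusted p = 0.000586). The highest BCAA-free value of each of these type IV chains was below the lowest control diet value by a wide margin. Col4a4 had 347, 288 and 294 in BCAA-free TAC hearts, against 625, 796 and 683 in control diet TAC hearts (-1.17 ± 0.12, adjusted p = 0.000722). Col4a5 had 1491, 1357 and 1299 in BCAA-free TAC hearts, against 1871, 2677 and 2062 in control diet TAC hearts (-0.66 ± 0.13, adjusted p = 0.00621). Col4a6, the remaining type IV chain, overlapped (-0.12 ± 0.26, adjusted p = 0.75).

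Among the other chains, Col15a1 had 2064, 2580.1 and 3039 in BCAA-free TAC hearts, against 8883, 16033 and 9100.1 in control diet TAC hearts (-2.11 ± 0.25, adjusted p = 0.00221). Col8a1 had 662, 756 and 1047 in BCAA-free TAC hearts, against 2972, 9766 and 3095 in control diet TAC hearts (-2.47 ± 0.51, adjusted p = 0.0187). Col14a1 had 463, 465 and 664 in BCAA-free TAC hearts, against 1047, 2673 and 1112 in control diet TAC hearts (-1.48 ± 0.39, adjusted p = 0.0309). Both diets were again separated without overlap in each chain. Of the 4 type VI chains 3 fell, with log2 fold changes of -1.36 ± 0.29 for Col6a1, -1.51 ± 0.31 for Col6a2 and -1.73 ± 0.23 for Col6a3. Col6a1 had 3046, 3178 and 3893 in BCAA-free TAC hearts, against 6635, 13826 and 6972 in control diet TAC hearts. Col6a2 had 2389, 2848 and 3509 in BCAA-free TAC hearts, against 6374, 13150.5 and 6536 in control diet TAC hearts. Col6a3 had 826, 939 and 1157 in BCAA-free TAC hearts, against 2505, 4531 and 2903 in control diet TAC hearts. In these filament chains too, all BCAA-free hearts lay below all control diet hearts. Col26a1 (-2.77 ± 0.48) and Col28a1 (-1.21 ± 0.23) fell at low levels, with Col26a1 at 11.1 ± 6.05 in BCAA-free TAC and 83.1 ± 47.1 in control diet TAC hearts. Col18a1, which rose with TAC on the control diet, overlapped between the diets (-0.70 ± 0.25, adjusted p = 0.0706) and had 754, 853 and 1205 in BCAA-free TAC hearts, against 1341, 2099.6 and 1187 in control diet TAC hearts. The transmembrane chains had log2 fold changes of -0.03 to 0.34 and did not pass, and Col6a6 (0.22 ± 0.26, adjusted p = 0.537) and Col7a1 overlapped. Col12a1 (-2.26 ± 0.84, adjusted p = 0.0938), Col16a1 (-1.31 ± 0.46, adjusted p = 0.0797), Col20a1 (-0.42 ± 0.16, adjusted p = 0.0638) and Col9a2 (-2.46 ± 0.79, adjusted p = 0.0549) were lower in all BCAA-free hearts and did not pass, and Col9a3 (0.37 ± 0.26, adjusted p = 0.303) was higher in all of them. Col8a2 (-2.17 ± 0.97, adjusted p = 0.144), Col22a1 (-1.51 ± 0.74, adjusted p = 0.163) and Col11a2 (0.12 ± 0.16, adjusted p = 0.592) overlapped.

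Without control diet TAC replicate 2, 22 chains were lower and 1, Col7a1, was higher, against 17% and 16% of all genes. Of these, 18 calls were shared with those on all libraries, and the median was -1.08. Col1a1 did not pass there (-1.41 ± 0.39, adjusted p = 0.0698), while Col3a1 (-2.31 ± 0.30) and Col4a1 (-1.67 ± 0.10) did. On all 6 libraries edgeR called 18 chains lower, against 18.3% of all genes, and DESeq2 27, against 18.5%. EdgeR lost Col1a1, the replicate block lost Col1a1, Col1a2 and Col14a1, and removal of GC and length trends lost Col1a1 and Col14a1. The authors' deposited table had 27 lower, against 18.4%. The Col1a1 call was also lost without any other library of the comparison, so it rested on all 6 together. Base composition moved with diet after TAC, and its part in the result was not tested beyond removing the trend. Across genes, Spearman correlations between GC content and the deviation of a library from the mean of the libraries were 0.20, 0.40 and 0.39 in BCAA-free TAC, against -0.22 to 0.038 in the other 9 libraries, with genes sharing each library. Collagen transcripts had a median GC content of 56.1% and all genes 49.8%. With the GC and length trends removed, 18 chains fell and the median was -1.36. Scaling to library totals alone moved the median of all genes to -0.13 and that of the chains to -1.59.

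**Figure D3:**
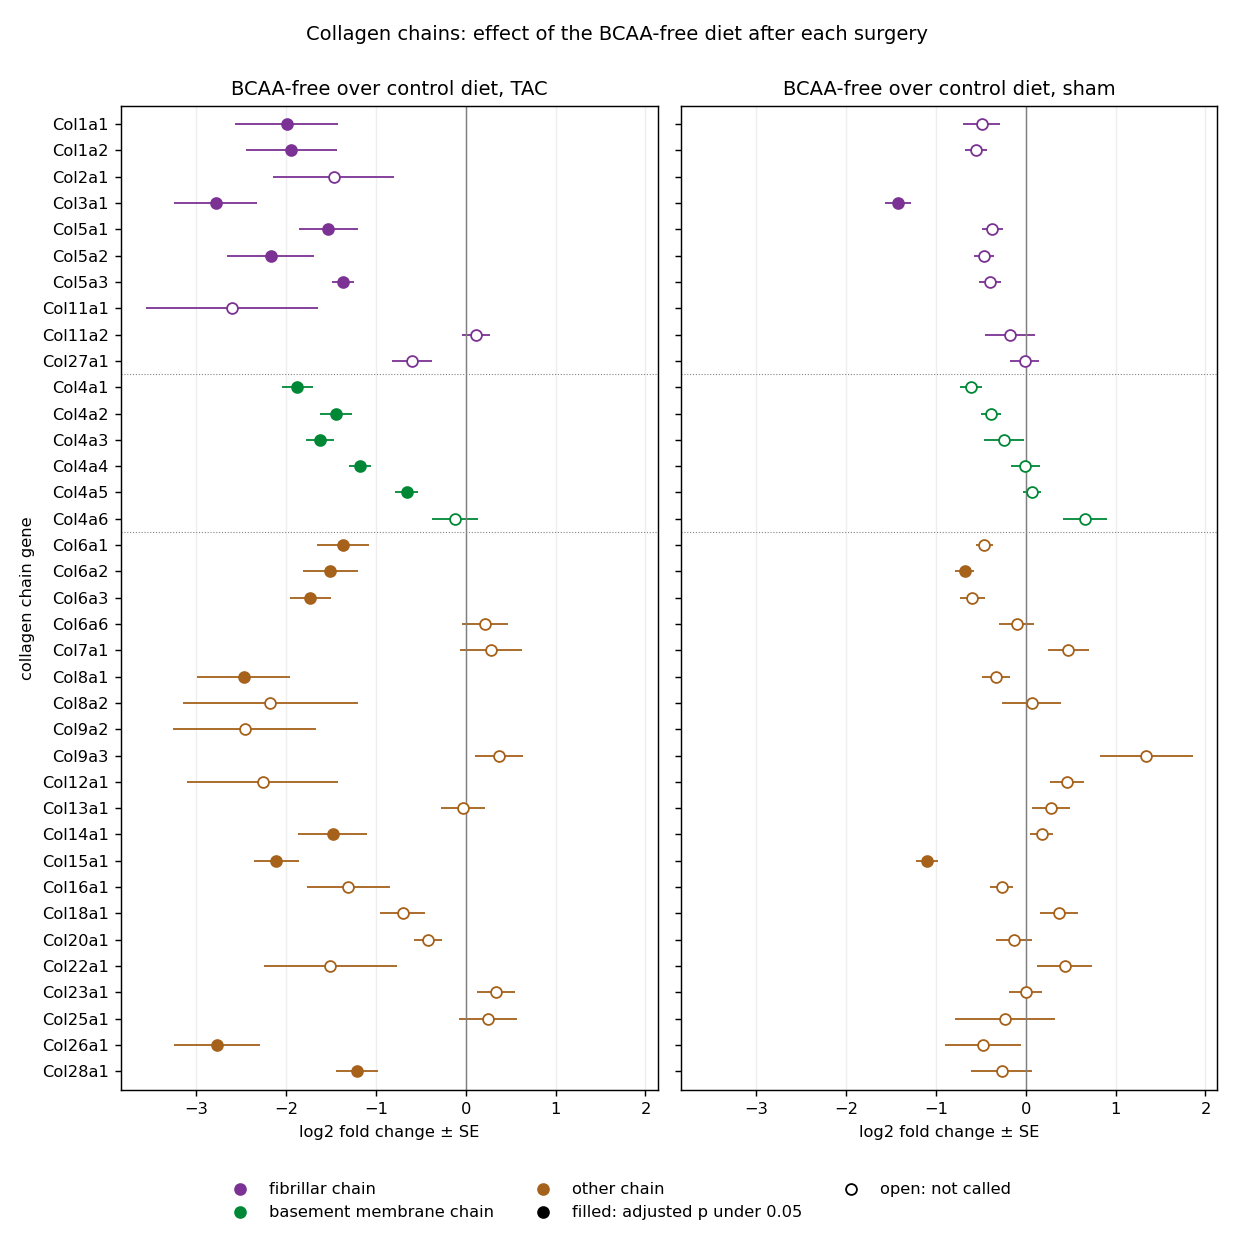
Log2 fold change ± SE (x axis) of each collagen chain (y axis), BCAA-free over control diet, after TAC (left) and after sham (right), by class; filled points passed an adjusted p of 0.05 by limma. After TAC 19 chains were lower, after sham 3.

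After sham surgery, with no pressure overload, the BCAA-free diet lowered 3 of 34 tested chains, against 0.375% of 15217 genes that fell. The median over the chains was -0.24, and -4.5e-04 over all genes. Col3a1 had 2023, 1466 and 1693 in BCAA-free sham hearts, against 5505, 4330.4 and 4014 in control diet sham hearts (-1.42 ± 0.15, adjusted p = 0.00261). Col15a1 had 1745, 1453 and 1569 in BCAA-free sham hearts, against 3968, 3111 and 3164 in control diet sham hearts (-1.10 ± 0.12, adjusted p = 0.00395). Col6a2 had 1936, 1642 and 1779 in BCAA-free sham hearts, against 3005, 2691 and 2871 in control diet sham hearts (-0.68 ± 0.10, adjusted p = 0.0171). For each of the 3 chains the highest BCAA-free value lay below the lowest control diet value. Of all chains tested, 12 were lower without overlap and 5 higher, against 11.3% and 11.7% of all genes.

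Col1a1 overlapped between the sham groups, with 1381, 1421 and 1629.7 in BCAA-free sham hearts, against 2297, 2703 and 1432 in control diet sham hearts (-0.49 ± 0.20, adjusted p = 0.27). Col1a2 had 2170.4, 2043 and 1884 in BCAA-free sham hearts, against 3421, 3062 and 2504 in control diet sham hearts (-0.55 ± 0.12, adjusted p = 0.0636). Col4a1 had 8764, 8101 and 9070.0 in BCAA-free sham hearts, against 15451, 11644 and 12634 in control diet sham hearts (-0.61 ± 0.12, adjusted p = 0.0518). In Col1a2 and Col4a1 the groups did not overlap although the tests did not pass. Col4a2 (-0.38 ± 0.11, adjusted p = 0.12), Col6a1 (-0.46 ± 0.09, adjusted p = 0.0536) and Col6a3 (-0.60 ± 0.14, adjusted p = 0.0681) were likewise lower in all BCAA-free hearts. The chains that were higher without overlap, and did not pass, were Col4a6 (0.66 ± 0.25, adjusted p = 0.219), Col7a1 (0.47 ± 0.23), Col9a3 (1.34 ± 0.52), Col12a1 (0.46 ± 0.19) and Col13a1 (0.28 ± 0.21). Col9a3 shares 6.07% of its exon bases with Tcfl5 on the other strand. Calls depended on the library set: 1 chain was called without BCAA-free sham replicate 2, against 0.0329% of all genes, and 11 without control diet sham replicate 3, against 1.76%, while on all 6 libraries edgeR called 3, against 0.368% of all genes, and DESeq2 9, against 1.81%. The authors' deposited table had 9 lower, against 1.87%. The Col6a2 call was lost without control diet sham replicate 1 or BCAA-free sham replicate 1 or 2, and that of Col15a1 without BCAA-free sham replicate 2. The fit on all 12 libraries called Col15a1 and lost Col3a1 and Col6a2.

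Ratios between chains of 1 library do not depend on its scaling, but its trend over GC content was not removed from them. GC content was 57.7% for Col4a1 and 60.6% for Col4a2, 52.5% for Col3a1 and 58.9% for Col1a1. The GC correlations were 0.20 to 0.40 in BCAA-free TAC and -0.16 to -0.019 in control diet TAC hearts. They were -0.21 to -0.13 in BCAA-free sham and -0.22 to 0.038 in control diet sham hearts. The part of GC content in the ratios was not tested. The Col4a1 to Col4a2 ratio per kb of exon was 0.834, 0.757 and 0.784 in BCAA-free TAC hearts, against 1.02, 1.08 and 1.11 in control diet TAC hearts. It was 0.881, 0.834 and 0.844 in BCAA-free sham hearts, against 1.05, 0.912 and 1.03 in control diet sham hearts. The ratio was lower on the BCAA-free diet after either surgery, with no overlap. The Col3a1 to Col1a1 ratio per kb averaged 0.817 ± 0.084 in BCAA-free TAC and 1.41 ± 0.18 in control diet TAC hearts. It averaged 0.788 ± 0.17 in BCAA-free sham and 1.52 ± 0.41 in control diet sham hearts, also with no overlap. Between TAC and sham hearts of 1 diet both ratios overlapped. The Col1a1 to Col1a2 ratio overlapped in all 4 comparisons. The Col4a3 to Col4a4 ratio averaged 0.431 ± 0.049 in BCAA-free TAC and 0.589 ± 0.069 in control diet TAC hearts, with no overlap. Fibrillar chains held 23.3% ± 2.5 of collagen reads per kb in BCAA-free TAC and 19.3% ± 0.57 in BCAA-free sham hearts, and 30% ± 5.9 in control diet TAC and 21.5% ± 1.9 in control diet sham hearts. In both diets the groups did not overlap, and the share was 36.8% in control diet TAC replicate 2 and 26.2% and 27% in the other control diet TAC hearts. Type IV chains held 49.7%, 50.6% and 44.7% in BCAA-free TAC hearts, against 53.1%, 54% and 55.2% in BCAA-free sham hearts. They held 47.7%, 36.1% and 48.4% in control diet TAC hearts, against 52.3%, 49.8% and 52.3% in control diet sham hearts. The type IV share was lower after TAC on either diet, with no overlap. The class shares rest on the exon union as length, and shares per kb of transcript were not computed.

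**Figure D4:**
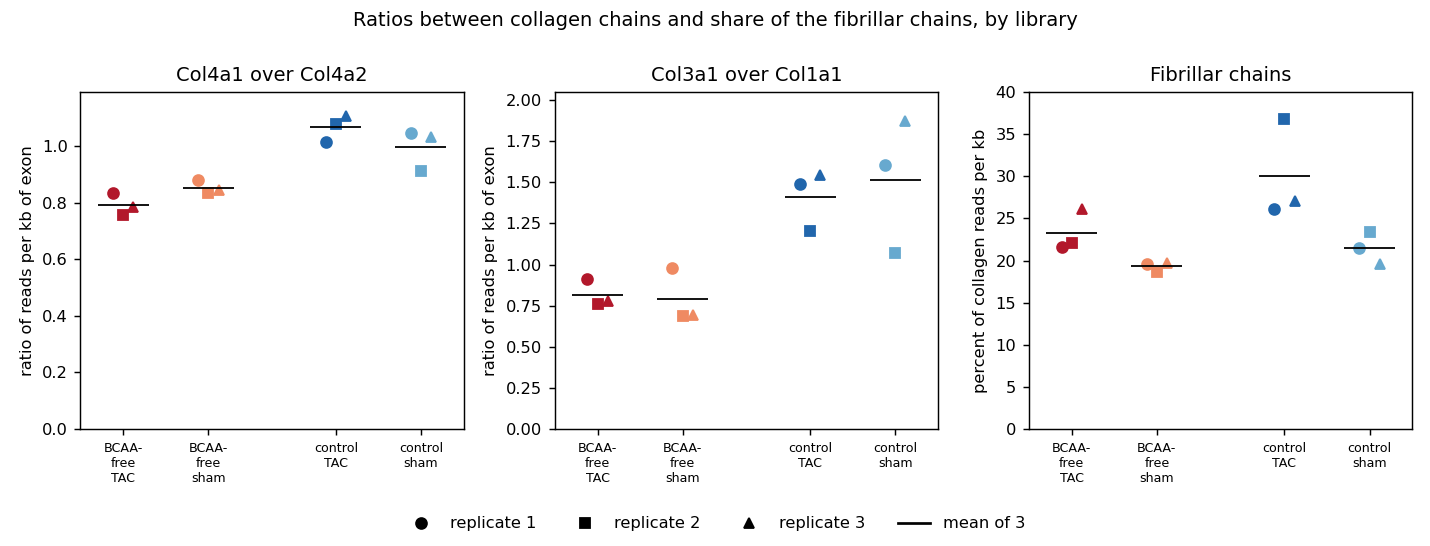
Ratio of reads per kb of exon of Col4a1 to Col4a2 and of Col3a1 to Col1a1, and percent of collagen reads per kb in fibrillar chains (y axes), in each library, with a line at the mean of 3. Both ratios are lower on the BCAA-free diet after either surgery, and the fibrillar share is higher after TAC on either diet.

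Genes that act on collagen were read from lists chosen with earlier results of these data known. The counts below stand against the shares of all genes called by limma. These were 2.95% higher and 1.09% lower for TAC with the control diet. With the BCAA-free diet TAC raised 3.34% and lowered 2.89%. The BCAA-free diet raised 16.5% and lowered 17.7% after TAC, and raised 0.25% and lowered 0.375% after sham. By the interaction test, the log2 TAC effect on the BCAA-free diet minus that on the control diet was below 0 for 3.73% of genes. Of 22 genes of collagen synthesis and folding, 1 rose and 1 fell with TAC on the control diet: P4ha3, a prolyl hydroxylase subunit (2.97 ± 0.64), and P3h4 (-0.66 ± 0.14). On the BCAA-free diet 3 of 21 tested rose with TAC: Fkbp10 (0.40 ± 0.10), Crtap (0.30 ± 0.08) and P3h3 (0.44 ± 0.12). In the diet comparison after TAC, 2 of 22 rose and 6 fell. In normalized counts, Serpinh1, the collagen chaperone, averaged 5629 ± 684 in BCAA-free TAC and 11524 ± 3456 in control diet TAC hearts, and P4ha1 1421 ± 211 in BCAA-free TAC and 2484 ± 533 in control diet TAC hearts (log2 fold change -0.79 ± 0.17).

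Of 13 genes of propeptide removal and crosslinking, 3 rose with TAC on the control diet, namely Adamts2 (1.55 ± 0.29), Loxl2 (1.87 ± 0.36) and Pcolce2 (0.62 ± 0.11), and 3 on the BCAA-free diet, namely Bmp1 (0.50 ± 0.07), Adamts2 (0.65 ± 0.11) and Pcolce (0.47 ± 0.09). After TAC 5 were lower on the BCAA-free diet, among them Loxl2, a crosslinking enzyme (-1.81 ± 0.36), and Adamts2 (-1.37 ± 0.33). Collagen receptors had 2 of 9 tested up with TAC on the control diet, Ddr2 (0.52 ± 0.10) and Mrc2 (1.35 ± 0.28). On the BCAA-free diet 2 of 8 rose and 1 fell, the integrin chain Itga1 (-0.55 ± 0.11). After TAC 7 of 9 receptors were lower on the BCAA-free diet, with Itga1 at 507 ± 68.2 in BCAA-free TAC and 1315 ± 94.3 in control diet TAC hearts. Itga1 was also lower on that diet after sham (-0.68 ± 0.11). Of 9 tested genes of collagen breakdown, 4 rose with TAC on the control diet, including the gelatinase Mmp2 (1.57 ± 0.26) and its relative Mmp14 (1.13 ± 0.24) and the inhibitor Timp1 (2.59 ± 0.43). With TAC on the BCAA-free diet 2 of 8 tested breakdown genes rose, and all 8 had a log2 fold change above 0. In the diet comparison after TAC 5 of 9 fell and 2 rose, with Mmp2 at -1.64 ± 0.32 and Timp4, another inhibitor, at 0.91 ± 0.21.

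Among 11 basement membrane partners of type IV collagen, 5 rose with TAC on the control diet, including the nidogens Nid1 (0.93 ± 0.14) and Nid2 (0.87 ± 0.14). On the BCAA-free diet limma and edgeR called 0 and DESeq2 1, with 2 higher at an unadjusted p under 0.05, and those with the smallest p were Hspg2 (0.25 ± 0.09, adjusted p = 0.0991) and Nid2 (0.31 ± 0.11, adjusted p = 0.0994). After TAC 8 were lower and 1 higher on the BCAA-free diet, with the laminin chain Lamb1 at 3422 ± 88.4 in BCAA-free TAC and 6280.5 ± 435 in control diet TAC hearts (-0.87 ± 0.08). By the interaction test with limma, the log2 TAC effect on the BCAA-free diet minus that on the control diet was below 0 for 4 of the 11. They were Nid1 (-0.91 ± 0.16), Lamb1 (-0.57 ± 0.11), Lama4 (-0.53 ± 0.11) and Lamc1 (-0.74 ± 0.19). In the synthesis and folding list this difference was called below 0 for 1 and above 0 for 2 of 21 genes tested. The sign alone does not tell a smaller rise from a larger fall, or a larger rise from a smaller fall. Limma and edgeR called this difference for 0 of 13 genes of propeptide removal and crosslinking. DESeq2 called 3 of these genes below 0, and 5 lay below 0 at an unadjusted p under 0.05. Of 8 receptors limma called 3 below 0 and DESeq2 4. Of 8 breakdown genes limma called 1 below 0 and DESeq2 3. By DESeq2 6.59% of all genes were called below 0. Over all genes tested limma called this difference above 0 for 747 of 15195.

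Some cell type markers moved with the chains and others overlapped or moved the other way, and their part in the results was not tested. With TAC on the control diet 4 of 8 activated fibroblast markers rose, and their summed values were 15158, 47835 and 13735 in TAC hearts, against 5862, 4948 and 7374 in sham hearts. The sum of 9 general fibroblast markers, with none at 0 in any library, was 64715 to 65686 in TAC and 58006 to 69181 in sham hearts and overlapped, while 3 of the 9 were called higher by limma, 2 by edgeR and 5 by DESeq2. The 8 endothelial markers summed to 30282 to 31018 in TAC and 26336 to 27670 in sham hearts, with 0 called by limma and edgeR, 1 by DESeq2 and 3 higher at an unadjusted p under 0.05. The 8 cardiomyocyte markers summed to 1430460 to 1841160 in TAC and 2085390 to 2175210 in sham hearts. On the BCAA-free diet the activated fibroblast sum was 7926 to 11868 in TAC and 6468 to 7287 in sham hearts, with 0 of 8 called by limma and edgeR, 2 by DESeq2 and 5 higher at an unadjusted p under 0.05. The 8 macrophage markers on this diet summed to 5893 to 7090 in TAC and 5051 to 5397 in sham hearts. Limma and DESeq2 called 3 of them higher and edgeR 2. On the control diet the macrophage sums of TAC and sham hearts overlapped, with 1 of 8 called higher by limma. Comparing the diets after TAC, activated fibroblast markers (5 of 8 down), fibroblast markers (6 of 9 down), endothelial markers (5 of 8 down, 1 up) and macrophage markers (7 of 8 down) had lower sums on the BCAA-free diet, and cardiomyocyte markers (6 of 8 up) a higher one. The fibroblast sum was 67257 to 75666 in BCAA-free TAC and 78821 to 79836 in control diet TAC hearts. After sham the fibroblast, activated fibroblast and endothelial sums overlapped between the diets, with 1 of 9 fibroblast markers down. Macrophage markers summed to 4146 to 4432 in BCAA-free and 5409 to 7828 in control diet sham hearts, with 0 of 8 called by limma and edgeR, 6 down by DESeq2 and 7 lower at an unadjusted p under 0.05. The cardiomyocyte sum was 2132860 to 2317670 in BCAA-free and 2000870 to 2107150 in control diet sham hearts, with 0 of 8 called by limma, edgeR and DESeq2 and 1 higher and 1 lower at an unadjusted p under 0.05. The smooth muscle and pericyte sum was 34118 to 38017 in BCAA-free and 24413 to 32754 in control diet sham hearts, with 2 of 9 up. The 4 atrial markers summed to 28167 to 91211 in TAC and 7888 to 22448 in sham hearts on the control diet, with the highest sum in replicate 2, and to 25433 to 60771 in TAC and 9898 to 20515 in sham hearts on the BCAA-free diet. The 4 measured chondrocyte markers summed to 69.3, 252 and 98.8 in control diet TAC hearts, against 44.4, 51.5 and 48.2 in control diet sham hearts. The smooth muscle and pericyte sum was higher after TAC on the control diet and lower after TAC on the BCAA-free diet, and the epicardial, adipocyte and blood sums overlapped in all 4 comparisons. The Schwann cell sum was higher on the BCAA-free diet after either surgery. No listed marker found in a table was at 0 in a library.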

How the data were processed

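PolyA RNA of 12 mouse heart samples was sequenced by the authors in 4 groups of 3. Trimmomatic 0.36, STAR 2.5.2b, Subread 1.5.2 and DESeq2, with GRCm38, are named per the submitters' processing notes. The authors deposited 4 tables of 15438 to 15936 genes, 1 per pair of groups, each normalized on its own. The deposited values are a signal, read counts divided by a size factor per library, beside the authors' log2 fold changes and p-values per the file headers. All values were whole multiples of 1 step per library within 0.01, which gave back reads. Members and lists were chosen with earlier results of these data known.

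Within each table, log2(value + 1) of genes with a mean of at least 10 was tested with limma 3.58.1 (R 4.3.3; trend and robust variances), with Benjamini-Hochberg adjustment over all genes and a threshold of 0.05. Fold changes on this scale understate the change of low genes. The interaction used both TAC against sham tables. The fits were tested on simulated data. Values were printed for chains called in at least 1 test and for Col1a1, Col1a2, Col3a1, Col4a1 and Col4a2. From each list, up to 4 called genes with the smallest p could be named, or 2 where none was called. Levels per kb used the exon union of the annotation. Motif positions count from the RefSeq start.

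Alternatives were TMM and library totals, no minimum mean or one of 100, a pseudocount of 10, the replicate block, edgeR 4.0.16 and DESeq2 1.42.0 on recovered reads, removal of GC and length trends, all 12 libraries in 1 fit, leaving out each library, and, chosen after seeing the data, the authors' deposited tests. Precision is limited by 3 samples per group.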

Additional observations from a re-analysis of the deposited data

Results flagged for a closer look

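The TAC effect differed between the diets, by the interaction test on 12 libraries with limma, for 10 chains. The differences below are the log2 fold change on the BCAA-free diet minus that on the control diet, with SE. Among type IV chains they were -1.26 ± 0.22 for Col4a1, -1.06 ± 0.21 for Col4a2, -1.37 ± 0.29 for Col4a3, -1.17 ± 0.21 for Col4a4 and -0.73 ± 0.16 for Col4a5. They were -0.97 ± 0.18 for Col5a3, -1.13 ± 0.28 for Col6a3, -2.14 ± 0.58 for Col8a1, -1.65 ± 0.41 for Col14a1 and -2.26 ± 0.64 for Col26a1. Each had a log2 fold change above 0 on the control diet. On the BCAA-free diet 5 of the 10 lay below 0 without passing the limma test: Col5a3 (-0.29 ± 0.10), Col4a3 (-0.11 ± 0.22), Col4a4 (-0.17 ± 0.13), Col4a5 (-0.06 ± 0.08) and Col26a1 (-0.03 ± 0.46). DESeq2 called Col5a3 lower.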

How the results depend on the processing

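Leaving out 1 library gave 15 to 23 called chains for diet after TAC, 1 to 11 for diet after sham, 0 to 6 for TAC on the BCAA-free diet, 0 to 23 for TAC on the control diet and 4 to 14 for the interaction. The medians then ranged over -1.62 to -1.08, -0.29 to -0.11, 0.14 to 0.36, 1.07 to 1.43 and -1.23 to -0.83 in the same order. For TAC on the BCAA-free diet, the 1 chain called without BCAA-free sham replicate 3 was lower, unlike the 1 higher chain on all libraries.

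For diet after sham, where 3 chains were called, DESeq2 and the authors' deposited tests called 9, the fit with GC and length trends removed 8 and that on all 12 libraries 1. The median there was -0.38 with a minimum mean of 100. For TAC on the BCAA-free diet, where 1 was called, DESeq2 called 9, the test of the authors' deposited table gave 6, the minimum mean of 100 gave 2, and library totals, removed GC and length trends and all 12 libraries gave 0, with 11, 10 and 0 chains higher at an unadjusted p under 0.05. For the interaction DESeq2 called 16 and the fit with GC and length trends removed 6, against 10. The cause of these moves was not tested. Of 53 calls of a chain in a comparison, 0 changed direction under any alternative run on these values, while 27 of 127 chain values that did not pass changed direction under at least 1.

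Deviations from the group means had r across genes of -0.18 to 0.081 between same-numbered libraries and -0.17 to 0.24 between libraries with different numbers. With means of 3 libraries these values cannot tell whether the replicate numbers pair the samples. With the replicate block 5 chains were called for diet after sham, 2 for TAC on the BCAA-free diet, 17 for TAC on the control diet, 17 for diet after TAC and 9 for the interaction.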
